A study of Homo sapiens with 6 samples.

Results

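Aminoacyl-tRNA synthetases join each amino acid to its transfer RNA, the step that sets which amino acid the ribosome adds at each codon. Human cells keep one set of these enzymes in the cytosol and another in the mitochondria, and nearly all of both sets are encoded by separate nuclear genes, with the mitochondrial enzymes imported after translation. The genes described here are the 20 cytosolic synthetases and the 16 mitochondrial ones, which carry a final 2 in their symbols. They were taken by symbol from the deposited expression table, where all 36 were found among 58735 genes, each in its older spelling (AARS for the gene now written AARS1).

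The libraries were made from MDA-MB-231, a line from a basal-like breast adenocarcinoma, carrying a non-targeting shRNA (SCR in the sample names), although the labels give the genotype as WT. There were 3 control libraries (0 Gy) and 3 irradiated libraries, made from polyA RNA 24 h after a dose of 10 Gy from a caesium source. Nothing in the labels says that the 3 libraries of a group came from separate cultures, so p-values measure only the spread between these libraries, which may be technical. The values are FPKM, fragment counts scaled by gene length and library depth, and every gene averaging 1 FPKM or more over the 6 libraries was tested with limma on log2(FPKM + 1). In bulk RNA, fewer cells of one kind and less RNA per cell cannot be told apart.

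Whole reads could be recovered from the FPKM values, and summed to between 15643641 and 28861781 per library. Vimentin (VIM, 301 FPKM at 0 Gy) and CD44 (78.6 FPKM) were abundant, as is usual for this mesenchymal-like line. ESR1 was at 0.00872 FPKM, PGR was listed at 0 in every library, and the leukocyte marker PTPRC was at 0.00404 FPKM. Of the other markers looked up, KRT18 was at 109 FPKM, EGFR at 29.8 FPKM and CDH1 at 0.324 FPKM at 0 Gy. ERBB2, which was expected to be low, was at 7.08 FPKM, near the median of 7.11 FPKM for all genes tested. The endothelial marker PECAM1 was at 1.22 FPKM at 0 Gy and 1.94 FPKM at 10 Gy, and its part in the results was not tested. Across all 12128 genes tested, 35.6% were called at an adjusted p under 0.05, 23.7% lower and 11.9% higher at 10 Gy. This split depends on how libraries are scaled. The share of called genes that were lower was 66.6% with the FPKM as deposited, 51.3% after median of ratios scaling, 41.7% by each library's own read total, 36.1% after upper quartile scaling and 23.1% after conversion to TPM. The number of called genes was 4317, and it fell to 2711 without irradiated library 1 and to 2651 without irradiated library 2.

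Some of the cytosolic genes carry in their promoters the sequence read by ATF4, the transcription factor that raises amino acid transporters, amino acid synthesis enzymes and many synthetases when amino acids run short. It was searched as TGATGNAA, on both strands, from 250 bases before to 50 after each RefSeq start site (GRCh38.p14), in the 30 members whose promoter was in the table. DARS, LARS, VARS, YARS, AARS2 and VARS2 had no entry. A match was found in 7 of 16 cytosolic members, 1 of 14 mitochondrial members and 2.59% of 8925 tested genes with a promoter. All 7 were among the 10 searched members that are often listed as ATF4 targets, and the other 6 cytosolic members searched had none. The 8 matches are shown in 30-base stretches, read 5′ to 3′ on the gene's strand, with the matched letters in capitals.
AARS: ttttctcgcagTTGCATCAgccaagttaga
CARS: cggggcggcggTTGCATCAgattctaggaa
GARS: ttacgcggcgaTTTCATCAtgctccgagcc
IARS: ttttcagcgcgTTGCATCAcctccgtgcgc
MARS: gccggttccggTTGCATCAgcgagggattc
NARS: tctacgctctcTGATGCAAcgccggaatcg
TARS: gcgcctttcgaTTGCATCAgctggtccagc
YARS2: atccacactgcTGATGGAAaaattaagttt

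In 6 of the 8 the matched letters were TTGCATCA or its reverse complement TGATGCAA. In AARS the stretch lies at chr16:70289675-70289704 on the minus strand, and the match begins 187 bases before the start site. A longer stretch around it, 70289660 to 70289718, touches an exon of the neighbouring gene DDX19B. The stretches of CARS (chr11:3057407-3057436, minus strand), MARS (chr12:57488053-57488082, plus), NARS (chr18:57621804-57621833, minus) and TARS (chr5:33440956-33440985, plus) each touch an annotated exon of their own gene. For GARS (chr7:30594834-30594863, plus) and IARS (chr9:92293692-92293721, minus) this was looked up over longer overlapping stretches. These were 30594820 to 30594877 and 92293698 to 92293735, and each touches an exon of its own gene. The matches in CARS, GARS, IARS, MARS, NARS and TARS begin between 33 bases before and 14 bases after a start site. The YARS2 stretch (chr12:32756076-32756105, minus) touches no annotated exon. A match describes these letters only, not a bound factor.

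In unirradiated cells the cytosolic genes were the more abundant set. Their median level was 40.9 FPKM, against 6.32 FPKM for the mitochondrial genes, a ratio of 6.47. Summed over each set, the cytosolic genes reached 811 ± 12.7 FPKM and the mitochondrial genes 152 ± 3.40 FPKM (SD, n = 3). The ranges met through 2 mitochondrial genes that stood far above the others, IARS2 and YARS2.

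FARSA, which encodes the alpha subunit of the cytosolic phenylalanyl enzyme, had the highest level, at 78.0, 70.1 and 73.5 FPKM in the 3 control libraries. SARS, the cytosolic seryl enzyme, followed at 71.2, 68.5 and 66.6 FPKM. FARSA was above SARS within each library, although their ranges over the 3 libraries overlapped. The next genes, TARS (59.9 ± 1.52 FPKM), IARS (59.5 ± 2.57) and EPRS (58.6 ± 1.42; SD, n = 3 for each), lay within each other's spread, and their order changed between libraries. The lowest cytosolic genes were HARS, the histidyl enzyme, at 17.8, 17.3 and 16.6 FPKM, and CARS, the cysteinyl enzyme, at 13.7, 13.0 and 13.7 FPKM. CARS was below HARS in every library.

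Among the mitochondrial genes, IARS2 (isoleucyl) was at 50.8, 49.7 and 48.8 FPKM in the control libraries, and YARS2 (tyrosyl) at 21.9, 21.4 and 20.4 FPKM. From TARS2 (8.85 ± 0.245 FPKM) down to PARS2 (3.41 ± 0.108; SD, n = 3), 13 genes lay between 3 and 9 FPKM. PARS2, the prolyl enzyme, was at 3.42, 3.52 and 3.30 FPKM. SARS2, the seryl enzyme, was lowest, at 0.566, 0.503 and 0.386 FPKM, from 25 to 57 reads per library over both doses. Its low value cannot be read as a low level, since 46.2% of the exon bases of SARS2 are shared, on the same strand, with the overlapping gene AC011455.2, itself listed at 0 in all libraries, and a further stretch of 349 bases with MRPS12 on the opposite strand.

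**Figure D1:**
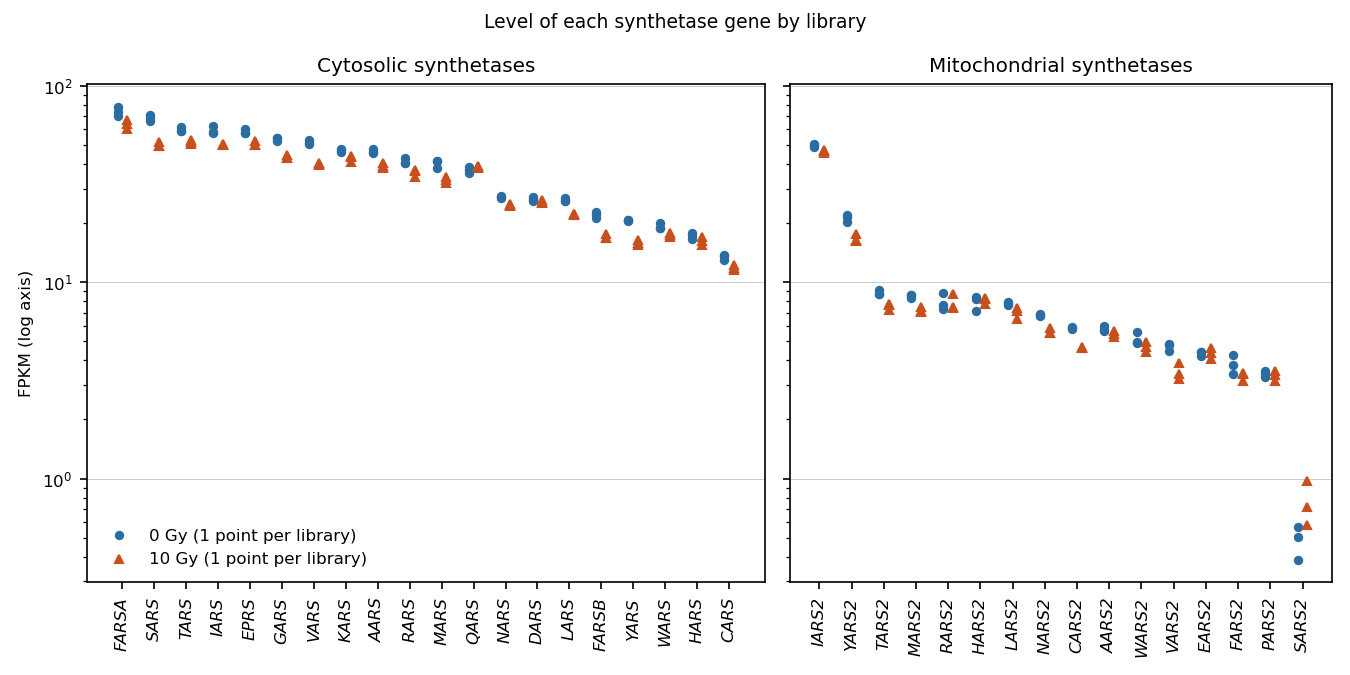
FPKM (log axis) of each synthetase gene in the 3 control (circles) and 3 irradiated (triangles) libraries, ordered by the mean at 0 Gy within the cytosolic and the mitochondrial set. IARS2 and YARS2 lie within the cytosolic range, SARS2 lies under 1 FPKM, and the triangles lie under the circles for 17 of 20 cytosolic genes.

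Levels between genes also depend on the gene length used. The deposited length equals, for all 36 members, the union of every exon annotated in GENCODE 29, retained introns included, and it was between 1 and 5.57 times the longest principal protein-coding transcript. Divided by the principal transcript instead, an alternative added after the values were seen, CARS2 rose from 5.85 to 32.5 FPKM and from rank 29 to 21 of 36, and CARS from 13.5 to 50.4 FPKM. SARS (142 FPKM) then ranked first and FARSA (99.1 FPKM) second. The ratio of the cytosolic to the mitochondrial median was 6.08 on this scale.

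After 10 Gy the cytosolic synthetases were lower almost throughout. Of the 20 genes, 17 were called lower, none higher, and 3 were not called, where 23.7% of all genes tested were called lower. This count is for FPKM as deposited, and it was between 7 and 15 under the 4 other scalings described at the end. The 15 were after median of ratios scaling, beside 16.9% of all genes, and the 7 with TPM, beside 5.93%. With FPKM as deposited, the background was 34.7% among tested genes averaging 5 FPKM or more. The median log2 change of the 20 genes was -0.20, against -0.04 for all genes. Their summed level fell from 811 ± 12.7 to 692 ± 11.9 FPKM (SD, n = 3), a fall by 14.7%. In 17 of the 20 every irradiated library lay under every control library, which held in that direction for 32.8% of all genes. The changes were modest. On the log2(FPKM + 1) scale 1 gene, SARS, was called at 1.3-fold or more, as were 2.95% of all genes in that direction. With 0.1 added in place of 1, YARS (-0.384) and the mitochondrial VARS2 (-0.427) also passed that fold. The SARS change was under 1.3-fold (0.379 on the log2 scale) after upper quartile scaling, at -0.35, by own read total, at -0.37, and with TPM, at -0.32. No cytosolic or mitochondrial member was called higher at 1.3-fold, where 2.82% of all genes were.

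SARS (chromosome 1, 109213918 to 109238169), a free homodimer that charges serine and also selenocysteine tRNA, fell from 71.2, 68.5 and 66.6 FPKM to 49.4, 49.4 and 52.0 FPKM. The log2 change was -0.44 (SE 0.038, adjusted p = 0.000613). YARS (chromosome 1, 32775237 to 32818153), the tyrosyl enzyme, went from 20.9, 20.8 and 20.5 FPKM to 15.4, 15.8 and 16.4 FPKM, a log2 change of -0.37 (SE 0.034, adjusted p = 0.000700). SARS fell by 26.9% and YARS fell by 23.5%, and in neither did the groups overlap.

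FARSB (chromosome 2, 222570536 to 222656337), the beta subunit of the phenylalanyl enzyme, was at 22.7, 21.3 and 22.3 FPKM at 0 Gy and at 17.6, 16.7 and 16.8 FPKM at 10 Gy. Its log2 change was -0.36 (SE 0.037, adjusted p = 0.000944). FARSA, its partner subunit, was at 64.2, 60.6 and 67.2 FPKM after irradiation, a log2 change of -0.20 (SE 0.052, adjusted p = 0.0217). Both subunits of the enzyme were thus called lower. The FARSA call was lost, with adjusted p between 0.0519 and 0.0763, without control library 3, irradiated library 1 or irradiated library 2.

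VARS (chromosome 6, 31777518 to 31795953), the valyl enzyme, which associates with elongation factor 1, fell from 51.3, 50.9 and 52.8 FPKM to 40.7, 39.9 and 39.8 FPKM. The log2 change was -0.36 (SE 0.029, adjusted p = 0.000593). GARS (chromosome 7, 30594681 to 30634033) encodes the glycyl enzyme of both compartments from a single gene, and went from 54.2, 54.6 and 52.7 FPKM to 42.7, 43.0 and 44.3 FPKM (log2 change -0.31, SE 0.030, adjusted p = 0.000812). These were tight groups, with SDs of 1.02 FPKM or less at both doses. KARS, the lysyl enzyme and the other gene that serves both compartments, changed less, from 46.6 ± 0.892 to 42.8 ± 1.39 FPKM (SD, n = 3; log2 change -0.12, SE 0.034, adjusted p = 0.0299). Its log2 change was 0.0034 with TPM. Its call was lost in 5 of the 6 fits that left out a library, all except the one without control library 2, with adjusted p between 0.0515 and 0.107.

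MARS (chromosome 12, 57475445 to 57517569), the methionyl enzyme, fell from 41.4, 41.4 and 38.4 FPKM to 33.2, 32.1 and 34.3 FPKM (log2 change -0.28, SE 0.042, adjusted p = 0.00325). It shares 355 exon bases with DDIT3 on the opposite strand, and the sources used here do not say whether reads were counted by strand. AARS (chromosome 16, 70252295 to 70289543), the alanyl enzyme, was at 46.2, 47.9 and 45.3 FPKM at 0 Gy and at 38.9, 38.4 and 40.5 FPKM at 10 Gy (log2 change -0.24, SE 0.035, adjusted p = 0.00309). Neither gene had overlapping groups.

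IARS (chromosome 9, 92210207 to 92293756), the isoleucyl enzyme, was at 58.5, 62.4 and 57.5 FPKM at 0 Gy and at 50.7, 49.9 and 49.8 FPKM at 10 Gy (log2 change -0.24, SE 0.037, adjusted p = 0.00346). LARS (chromosome 5, 146113038 to 146182660), the leucyl enzyme and a known leucine sensor for mTORC1, went from 26.0, 27.0 and 25.8 FPKM to 22.2, 22.3 and 22.0 FPKM (log2 change -0.24, SE 0.030, adjusted p = 0.00189). TARS (chromosome 5, 33440696 to 33469539), the threonyl enzyme, went from 61.6, 59.1 and 58.8 FPKM to 50.6, 51.9 and 52.7 FPKM (log2 change -0.21, SE 0.032, adjusted p = 0.00373). In all 3 the irradiated libraries lay under the control libraries. The remaining called genes were EPRS, RARS, CARS, WARS and NARS, with log2 changes between -0.20 and -0.14. The RARS call was lost without irradiated library 2 (adjusted p = 0.0559), and the WARS call without control library 2, irradiated library 1 or irradiated library 2 (adjusted p between 0.0533 and 0.0900).

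The 3 cytosolic genes that were not called were QARS, DARS and HARS. QARS, the glutaminyl enzyme, was the only one with a higher mean after irradiation, at 37.3 ± 1.16 FPKM at 0 Gy and 38.6 ± 0.461 FPKM at 10 Gy (SD, n = 3; log2 change 0.05, SE 0.033, adjusted p = 0.271). DARS, the aspartyl enzyme, was at 26.5 ± 0.664 and 25.8 ± 0.502 FPKM (adjusted p = 0.358), and HARS at 17.2 ± 0.593 and 16.3 ± 0.686 FPKM (SD, n = 3; adjusted p = 0.179). The groups overlapped in all 3. QARS was called higher under all 4 other scalings of the libraries, with log2 changes between 0.10 and 0.18.

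**Figure D2:**
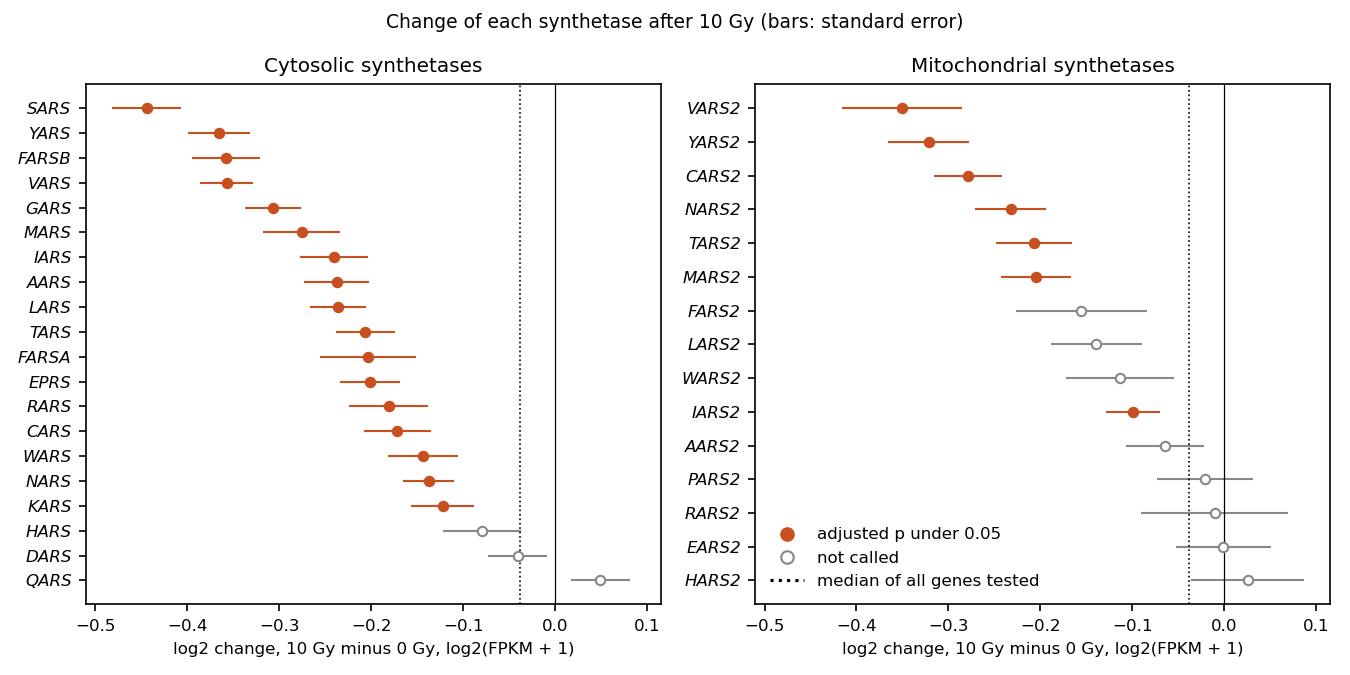
Log2 change from 0 Gy to 10 Gy of the tested synthetases with FPKM as deposited (points, with standard errors), filled where the adjusted p was under 0.05. In the cytosolic set 17 of 20 points are filled and only QARS lies above 0, and in the mitochondrial set 7 of 15 are filled and the dotted line is the median of all genes at -0.04.

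The mitochondrial synthetases were lower less uniformly. Of the 16 genes, 15 passed the minimum level and 7 of these were called lower, none higher, beside the 23.7% of all genes. Their median log2 change was -0.14. The summed level fell from 152 ± 3.40 to 137 ± 0.456 FPKM (SD, n = 3), a fall by 10.3%. Both depended on the scaling, with 6 genes called lower after upper quartile or median of ratios scaling or by own read total, and 3 with TPM, where the median was -0.018. Of all genes tested, 11.9% were called lower after upper quartile scaling, 16.9% after median of ratios scaling and 5.93% with TPM. The share by own read total is not reported here. As a share of total FPKM the sum fell by 1.98%, with overlapping groups. The irradiated libraries lay under the control libraries in 8 of the 15, beside 32.8% of all genes. Whether the cytosolic and mitochondrial sets differ in their response was not tested. The log2(FPKM + 1) scale understates changes of low genes, and most mitochondrial genes lay under the cytosolic range at 0 Gy. With 0.1 added in place of 1, the mitochondrial median was -0.16 and the cytosolic median -0.21.

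VARS2 (chromosome 6, 30908242 to 30926459), the mitochondrial valyl enzyme, fell from 4.86, 4.49 and 4.81 FPKM to 3.39, 3.88 and 3.21 FPKM. Its log2 change was -0.35 (SE 0.065, adjusted p = 0.00682), and 22.0% of its exon bases are shared with GTF2H4 on the same strand. YARS2 (chromosome 12, 32727490 to 32755902) went from 21.9, 21.4 and 20.4 FPKM to 16.5, 16.2 and 17.7 FPKM, a log2 change of -0.32 (SE 0.044, adjusted p = 0.00235). These were the mitochondrial counterparts of 2 of the 4 cytosolic genes with the largest falls.

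CARS2 (chromosome 13, 110641412 to 110713603), the cysteinyl enzyme, which is also known to make cysteine persulfide, went from 5.78, 5.85 and 5.91 FPKM to 4.70, 4.60 and 4.63 FPKM (log2 change -0.28, SE 0.037, adjusted p = 0.00208). NARS2 (asparaginyl; chromosome 11, 78435961 to 78574874) went from 6.72, 6.85 and 6.78 FPKM to 5.85, 5.49 and 5.54 FPKM (log2 change -0.23, SE 0.039, adjusted p = 0.00468). In both, the control libraries differed by a few percent and the irradiated ones lay well under them. TARS2 (threonyl; chromosome 1, 150487364 to 150507609) went from 9.13, 8.70 and 8.72 FPKM to 7.63, 7.22 and 7.76 FPKM (log2 change -0.21, SE 0.041, adjusted p = 0.00851). MARS2 (methionyl; chromosome 2, 197705369 to 197708387) went from 8.59, 8.60 and 8.27 FPKM to 7.18, 7.48 and 7.04 FPKM (log2 change -0.21, SE 0.038, adjusted p = 0.00693). The groups did not overlap in either gene.

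IARS2 (chromosome 1, 220094102 to 220148041) had the smallest called change, from 50.8, 49.7 and 48.8 FPKM to 46.9, 45.6 and 46.6 FPKM (log2 change -0.10, SE 0.030, adjusted p = 0.0366). The call was lost without control library 2 or any single irradiated library, with adjusted p between 0.0707 and 0.133, and the log2 change was 0.027 with TPM. LARS2, the leucyl enzyme, had groups that did not overlap, at 7.83 ± 0.144 and 7.02 ± 0.463 FPKM (SD, n = 3), but an adjusted p of 0.0638. The genes FARS2, WARS2, AARS2, PARS2, RARS2, EARS2 and HARS2 were not called either, with log2 changes between -0.16 and 0.03. SARS2 was not tested, and is the only member whose irradiated libraries all lay above the control libraries, as held for 19.1% of the genes tested. It was at 0.580, 0.966 and 0.715 FPKM at 10 Gy, against 0.566, 0.503 and 0.386 FPKM in the control libraries.

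For 17 combinations of a cytosolic and a mitochondrial enzyme of the same amino acid, the ratio of their FPKM was compared between doses. At 0 Gy the ratio was between 0.977, for YARS to YARS2, and 145, for SARS to SARS2, with a median of 5.25. The 17 are not all separate, since EPRS and FARS2 each enter 2 of them. The ratios of the 2 doses did not overlap in 7 of the 17, being lower after irradiation in 5 and higher in 2. For single genes rather than ratios, the groups did not overlap, in either direction, in 51.9% of all genes tested. For each of these 7 ratios the exact permutation test gave a two-sided p of 0.1, the smallest that 3 libraries against 3 allow. This test could therefore not pass 0.05 for any ratio, and the ratios are given as values with their spread.

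The ratio of AARS to AARS2 went from 8.07 ± 0.423 to 7.18 ± 0.271, and that of IARS to IARS2 from 1.19 ± 0.053 to 1.08 ± 0.012 (SD, n = 3). EPRS charges both glutamate and proline in the cytosol, so it was set against EARS2 and PARS2. Its ratio to EARS2 went from 13.5 ± 0.743 to 11.8 ± 0.741 and that to PARS2 from 17.2 ± 0.298 to 15.2 ± 0.659 (SD, n = 3). In these 4 the cytosolic gene was called lower and the mitochondrial gene changed less. The ratio of SARS to SARS2 went from 145 ± 24.6 to 69.7 ± 17.3 (SD, n = 3), which rests on the few SARS2 reads. The ratio rose for CARS to CARS2, from 2.30 ± 0.073 to 2.55 ± 0.068, and for NARS to NARS2, from 4.02 ± 0.034 to 4.39 ± 0.171 (SD, n = 3). For YARS to YARS2, VARS to VARS2, TARS to TARS2 and MARS to MARS2, where both genes were called lower, the ratios overlapped.

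**Figure D3:**
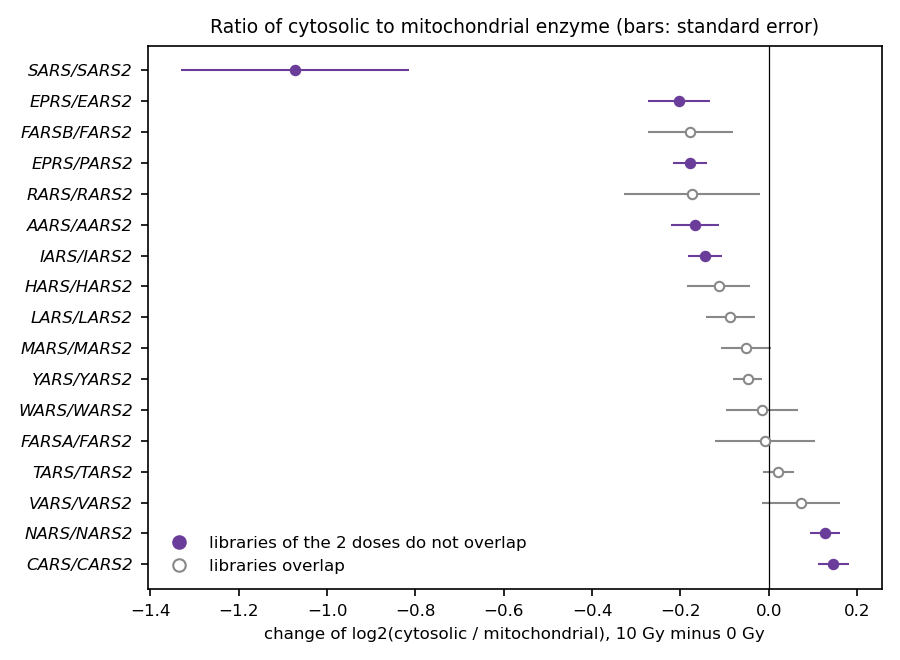
Change of the log2 ratio of cytosolic to mitochondrial FPKM from 0 Gy to 10 Gy for 17 combinations (points, with standard errors), filled where the ratios of the 2 doses did not overlap. The filled points are 5 below 0 and 2 above, and SARS/SARS2 stands apart at -1.07.

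HARS and HARS2 lie head to head on chromosome 5, HARS on the minus strand from 140673904 to 140691862 and HARS2 on the plus strand from 140691426 to 140699318, and share 437 exon bases. Neither was called. HARS2 was at 8.38, 8.25 and 7.16 FPKM at 0 Gy and at 8.18, 8.33 and 7.71 FPKM at 10 Gy, with overlapping groups (log2 change 0.03, SE 0.061, adjusted p = 0.772). Reads from the shared bases cannot be told apart unless counted by strand.

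Many cytosolic synthetases sit in the multisynthetase complex, an assembly of enzymes on the scaffold proteins AIMP1, AIMP2 and EEF1E1. Of its 8 enzyme genes (EPRS, IARS, LARS, MARS, QARS, KARS, RARS and DARS), 6 were called lower, with a median log2 change of -0.19, beside 23.7% of all genes, and the others were QARS and DARS. Of the 12 cytosolic genes outside the complex, 11 were called lower, with a median of -0.22. With TPM the counts were 1 of 8 and 6 of 12, beside 5.93% of the genes tested. For the scaffold, EEF1E1 was called lower (log2 change -0.24, SE 0.064, adjusted p = 0.0234), a call that was lost without control library 3 or irradiated library 1, without a minimum level and under all 4 other scalings. AIMP1 (log2 change -0.13, SE 0.044, adjusted p = 0.0604) and AIMP2 (log2 change -0.16, SE 0.072, adjusted p = 0.121) were not called, and 28.9% of the exon bases of AIMP2 are shared with EIF2AK1 on the opposite strand.

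All 11 cytosolic members that are often listed as ATF4 targets (AARS, CARS, EPRS, GARS, IARS, MARS, NARS, SARS, TARS, WARS and YARS) were called lower with FPKM as deposited, with a median log2 change of -0.24, where 23.7% of all genes were. Of the other 9 cytosolic genes, 6 were called lower, with a median of -0.18. The counts were 10 and 5 after median of ratios scaling, 8 and 3 by own read total or after upper quartile scaling, and 5 and 2 with TPM. Of all genes tested, 16.9% were called lower after median of ratios scaling, 11.9% after upper quartile scaling and 5.93% with TPM. The share by own read total is not reported here. The 7 cytosolic genes whose promoter match is shown above are all in the first of these lists. That list was written from general knowledge and may itself rest on this sequence. Whether listed and other genes differ in their change was not tested, nor was any part of ATF4 in it. ATF4 itself fell from 156 ± 8.76 to 126 ± 3.05 FPKM (SD, n = 3; log2 change -0.30, SE 0.046, adjusted p = 0.00335). Its protein is controlled mainly by translation, which these libraries do not measure.

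Of 18 tested genes in a list of ATF4 and its targets other than synthetases, 12 were called lower and 1 higher, with a median log2 change of -0.29, beside 23.7% and 11.9% of all genes. With TPM, where 20 genes of the list were tested, 8 were called lower and 3 higher. Of all 16391 genes tested with TPM, 5.93% were called lower, and 3232 genes were called higher. SLC7A11, the cystine transporter subunit, had a log2 change of -0.69, the pseudokinase TRIB3 -0.63, the eIF2alpha phosphatase subunit PPP1R15A -0.63, the serine synthesis enzyme PSAT1 -0.56, the mitochondrial serine hydroxymethyltransferase SHMT2 -0.49 and the transporter subunit SLC3A2 -0.42 (adjusted p between 0.000376 and 0.000593 for all 6). DDIT4, a stress-induced inhibitor of mTORC1, was the gene that rose, by a log2 change of 0.42 (adjusted p = 0.00494). SLC7A5 and CEBPB were not called (log2 changes 0.01 and 0.05, adjusted p = 0.873 and 0.523). ASNS and PHGDH were under the minimum level with FPKM as deposited, and 44.6% of the exon bases of ASNS are shared on the same strand with another annotated gene.

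WARS, the tryptophanyl enzyme, is also a known interferon-gamma response gene. It was at 18.9, 20.1 and 18.9 FPKM at 0 Gy and at 16.9, 17.5 and 17.7 FPKM at 10 Gy. Of 7 tested interferon-gamma response genes, only GBP1 was called, lower by 0.21 on the log2 scale (adjusted p = 0.0273), and the median log2 change of the list was 0.01, beside 23.7% of all genes called lower. The GBP1 call was lost without any one irradiated library and without a minimum level. The list had 1 gene lower and 2 higher after median of ratios scaling, and none lower under the other 3 scalings, with 3 higher after upper quartile scaling or by own read total and 4 with TPM. Of all 12128 genes tested, 1945 were called higher after median of ratios scaling, with 16.9% lower, and 2556 higher after upper quartile scaling. With TPM 3232 of 16391 were called higher, and the number by own read total is not reported here. No direction can be given for the list.

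Other genes of tRNA charging and handling were called lower at a share near that of all genes. Of 10 tested genes in this list, none of them a member, 3 were called lower and none higher. The median log2 change was -0.16, and 23.7% of all genes were called lower. The count was 1 without control library 3 or irradiated library 1, without a minimum level, after upper quartile scaling, by own read total and with TPM. Without a minimum level and with TPM, 11 genes of the list were tested. Of all genes, 20.2% were called lower without control library 3, 15.2% without irradiated library 1 and 5.73% without a minimum level. The shares were 11.9% after upper quartile scaling and 5.93% with TPM, and that by own read total is not reported here. The 3 genes were PTRHD1 (-0.27), the D-aminoacyl-tRNA deacylase DTD1 (-0.25) and GATC (-0.22), a subunit of the mitochondrial amidotransferase that makes Gln-tRNA from the product of EARS2, with 39.1% of its exon bases shared with SRSF9 on the opposite strand. The other amidotransferase subunits, GATB and QRSL1, were not called (adjusted p = 0.0517 and 0.180). Among elongation factors, which carry the charged tRNA to the ribosome, 2 of 4 tested cytosolic genes (EEF1B2 and EEF2) and 2 of 4 mitochondrial genes (TUFM and TSFM) were called lower, with log2 changes between -0.23 and -0.14, beside 23.7% of all genes. Without control library 2 or any one irradiated library 1 of the cytosolic genes was called, and without any one irradiated library 1 of the mitochondrial genes. With TPM none was called lower in either list and 1 mitochondrial gene was called higher, and after upper quartile scaling 1 was lower in each list and 1 mitochondrial gene higher. Of all genes, between 14.9% and 21.5% were called lower with a library left out, 11.9% after upper quartile scaling and 5.93% with TPM. Called higher were 2556 of 12128 genes after upper quartile scaling and 3232 of 16391 with TPM. EEF1A1 (log2 change -0.17, adjusted p = 0.0513), EEF1D, GFM1 and GFM2 were not called. EEF1G was listed at 0 in every library and shares 99.9% of its exon bases with the overlapping gene AP002990.1.

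**Figure D4:**
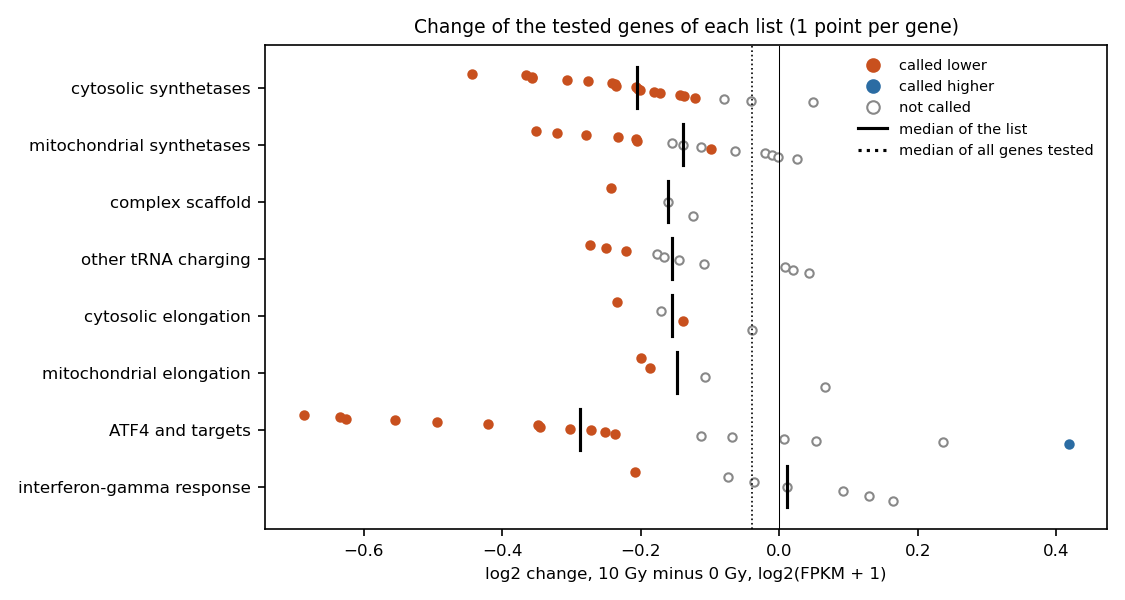
Log2 change from 0 Gy to 10 Gy of the tested genes of each list (1 point per gene), filled where called, with a bar at the list's median and a dotted line at the median of all genes. The medians are -0.20 for cytosolic and -0.14 for mitochondrial synthetases, -0.29 for ATF4 and its targets and 0.01 for interferon-gamma response genes.

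The size of the decrease depended on the scaling. The total FPKM of the libraries itself fell by 8.51%, from a mean of 272981 to 249745. As a share of that total, the cytosolic genes fell from 0.297% ± 0.0022 to 0.277% ± 0.0024 and the mitochondrial genes went from 0.0558% ± 0.00074 to 0.0547% ± 0.00089 (SD, n = 3). The cytosolic shares of the 2 doses did not overlap, and the mitochondrial ones did. With TPM, a minimum of 1 TPM let in 16391 genes, SARS2 among them, so its medians are over more genes than the others. Under it the median of all genes was higher by 0.14 on the log2 scale, and 7 of 20 cytosolic and 3 of 16 mitochondrial genes were called lower, beside 5.93% of the genes tested. Relative to the median of all genes, the cytosolic median was -0.17 as deposited and between -0.19 and -0.15 under the other scalings, and the mitochondrial median was -0.10 as deposited and between -0.12 and -0.10. In every one of the 17 alternatives, AARS, FARSB, GARS, MARS, SARS, VARS, YARS, CARS2 and YARS2 were called lower, as was VARS2 in the 16 that tested it.

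**Figure D5:**
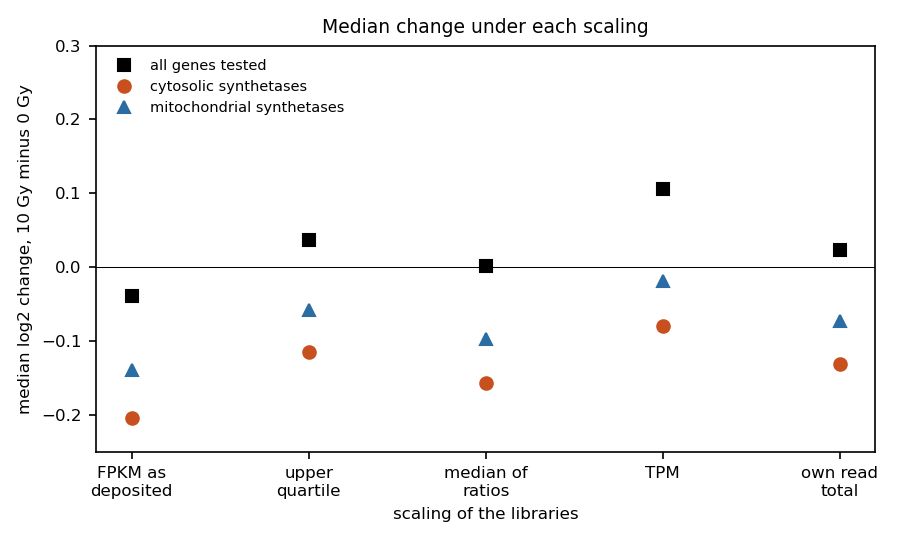
Median log2 change from 0 Gy to 10 Gy of all genes tested (squares), cytosolic (circles) and mitochondrial synthetases (triangles) under 5 scalings of the libraries. The cytosolic median lies under the mitochondrial and the all-gene medians under each scaling, from -0.20 with FPKM as deposited to -0.08 with TPM.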

How the data were processed

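Sequencing of RNA from MDA-MB-231 cells gave 3 libraries at 0 Gy and 3 at 10 Gy, grouped here by their titles. The authors deposited FPKM values per gene from polyA libraries processed by their provider. The submitters' processing notes name HISAT2 and GRCh38, and the counting program is not given in the sources used here. Gene identifiers all matched GENCODE 29, and 58724 of 58735 genes had equal coordinates. Each FPKM times gene length came out as whole reads (tolerance 0.01) for 100% of values above 0. The implied depth was 0.973, 0.983 and 0.991 times the recovered reads in the 3 control libraries. In the 3 irradiated libraries it was 1.04, 1.04 and 1.03 times. A scaling factor that differs between the doses is thus already in the values, and it lowers the irradiated libraries relative to the control ones. The median log2 change of all genes was -0.0387 as deposited and 0.0229 by own read total.

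Values were tested in R 4.3.3 with limma 3.58.1 (eBayes with an intensity trend) on log2(FPKM + 1) for the 12128 genes averaging 1 FPKM or more, with Benjamini-Hochberg adjustment over all of them. Fold changes are on that scale, which understates low genes. An exact permutation test (two-sided) was run on each ratio. The members, the lists (written from general knowledge) and the rule for named genes were chosen with earlier results of these data known. All members could be named, with values per library for called genes with the largest changes and for the highest and lowest levels, and other genes were named where called, up to 6 a list. One gene of the tRNA charging list is not reported here. Depth bears on counting error alone, and the libraries of a group differed by more than that. Chi-square per degree of freedom between 2 libraries of a group was between 2 and 7.32, where counting error alone gives about 1. The test was also run on simulated data with far fewer changed genes than were called here and no scaling difference between doses. That run does not show how many of the present calls are right. Alternatives were another pseudocount, filter, scaling, replicate block, libraries left out, eBayes without trend, protein-coding genes alone and limma-voom on recovered reads. Scaling by own read total and the principal transcript length were added after the data were seen. Plots were made in matplotlib 3.10.9 (Python 3.11.15).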

Additional observations from a re-analysis of the deposited data

How the results depend on the processing

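The numbers of cytosolic and mitochondrial synthetases called, 17 and 7, stayed within 1.5 times except with TPM, where 8 and 3 were called. These include QARS, called higher under the 4 other scalings, and the cytosolic genes called lower were 15 after median of ratios, 11 after upper quartile scaling, 11 by own read total and 7 with TPM. Of all genes, 16.9%, 11.9% and 5.93% were called lower after median of ratios, upper quartile scaling and TPM. The share by own read total is not reported here. The cytosolic and mitochondrial median log2 changes were -0.11 and -0.059 after upper quartile scaling, -0.16 and -0.097 after median of ratios, -0.080 and -0.018 with TPM, and -0.13 and -0.074 by own read total. With a minimum of 5 FPKM the mitochondrial median was -0.17. With TPM, KARS (0.0034) and IARS2 (0.027) changed sign. Leaving out a library gave 2651 to 3975 genes called, 13 to 16 cytosolic and 6 to 7 mitochondrial calls, and medians of -0.23 to -0.20 and -0.17 to -0.093. In these fits 14.9% to 21.5% of all genes tested were called lower. Leaving out a library leaves 2 in a group, whose spread is pooled by limma. The ratio of median levels was 6.08 with principal transcript lengths. The causes of these shifts were not tested, beyond the change of scale itself. The replicate numbers did not pair the libraries (correlations of deviations of -0.0405, -0.0349 and -0.101 for the same number), and with a replicate block 3503 genes, 17 cytosolic and 6 mitochondrial synthetases were called, with IARS2 lost (adjusted p = 0.0822), and no interferon-gamma response gene and 1 cytosolic elongation gene. With that block 19.5% of all genes were called lower. At 127 to 221 reads per library for PARS2, and fewer for SARS2, the depth limits what can be said of the lowest members.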

Other observations

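Synthetases fall into a pair of unrelated structural classes. Of the 10 class I cytosolic genes 9 were called lower, with a median log2 change of -0.22, and of the 10 class II genes 8, with a median of -0.20. EPRS, a fusion of both kinds, was counted in class I. Among tested mitochondrial genes, 5 of 9 of class I and 2 of 6 of class II were called lower, with medians of -0.14 and -0.11. Of all genes tested, 23.7% were called lower. With TPM the counts were 3 and 4 for the cytosolic and 3 and 0 for the mitochondrial genes of classes I and II, beside 5.93% of the genes tested. No difference between classes was tested.

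The table holds 14 pseudogenes named after members. The highest, RARSP1, had a mean of 0.0313 FPKM over the 6 libraries, KARSP1 was at 0.0044 FPKM, and the other 12 were listed at 0.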
